A study of Mus musculus with 6 samples.

Results

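The genes described here are the Wnt ligands, their receptors and the proteins that modulate them. A gene belonged to the set if its symbol began with Wnt, Fzd, Sfrp, Dkk or Rspo followed by a number, which gave 42 genes, or if it was 1 of 14 genes listed singly (*Lgr4*, *Lgr5*, *Lgr6*, *Axin2*, *Lef1*, *Tcf7*, *Znrf3*, *Rnf43*, *Porcn*, *Wls*, *Wif1*, *Lrp5*, *Lrp6* and *Frzb*). These 56 genes were picked by name out of 20145 mouse genes that could be named on the array. The rule used no measured values, but it was set with earlier results of these data known. A probe was present for 55 of them, all but the antisense RNA *Fzd10os*, and 42 had a probe bright enough to be tested. The other 13 were not tested, because fewer than 3 of the 6 arrays held a signal well above background.

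The whole uterus was measured in 3 females of each genotype, *Sox17 f/f* and *Sox17 ed/ed*, at gestation day (GD) 3.5 of natural pregnancy, 3 days after the postcoital plug was seen, on 1-colour Agilent mouse expression arrays. All 6 females carried the floxed *Sox17* alleles. The 3 *Sox17 ed/ed* females carried *LtfiCre/+* in addition, a recombinase driven by the lactotransferrin gene that acts in the uterine epithelium from puberty onward, so *Sox17* stays intact in the other cells of the uterus. The *Sox17 f/f* females were littermate controls without the recombinase, and no females with *LtfiCre* but without floxed alleles were among these arrays. Females were mated at 8 to 10 weeks of age, embryos were flushed out before the uterine horns were frozen, and each array held the RNA of 1 sample.

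Wnt proteins are lipid-modified ligands that bind Frizzled receptors together with *Lrp5* or *Lrp6*. In the canonical branch this stops the breakdown of beta-catenin, which then switches on genes together with Tcf and Lef factors, whereas other branches steer cell polarity and movement. In the female tract, Wnt signals passed between epithelium and stroma shape the Mullerian duct, the uterine glands and the decidua.

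Of the 42 tested genes, 9 rose and 6 fell in the *Sox17 ed/ed* uterus. The ligands *Wnt7b*, *Wnt4*, *Wnt16* and *Wnt6*, the ligand carrier *Wls*, the receptor *Fzd10*, the receptor-removing ligase *Rnf43*, the antagonist *Wif1* and the feedback gene *Axin2* rose. The ligand *Wnt11* fell 17.5-fold, and the antagonists *Dkk2*, *Sfrp1*, *Sfrp4* and *Dkk3* and the receptor *Fzd9* fell between 1.49-fold and 2.02-fold. A gene was said to rise or fall at an unadjusted p under 0.01 and a fold change of at least 1.4, the thresholds of the study's methods, and the adjusted p given with each gene is Benjamini-Hochberg over all 14847 genes tested, from limma. All 15 genes had an adjusted p under 0.05, and in all 15 the arrays of the genotypes did not overlap. Of the 1857 genes that passed among all tested, 1846 had such an adjusted p, and the arrays of all 1857 did not overlap. Both traits thus came almost entirely with the call and are no further support for it.

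Across all genes tested, 6.04% passed these thresholds as higher and 6.47% as lower, against 21.4% and 14.3% of the 42 Wnt genes. At an adjusted p under 0.05 with no limit on the fold change, 18.9% of all genes and 18 of the 42 Wnt genes passed, with 11 higher and 7 lower. The arrays of the genotypes did not overlap for 40.6% of all genes and for 24 of the 42 Wnt genes (57.1%). The median log2 fold change of the Wnt genes was 0.06 and that of all genes -0.00, while the median size of the change, whatever its direction, was 0.44 among the Wnt genes and 0.17 among all genes. These counts and medians describe the set and carry no test of their own.

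The share of non-control spots with a signal well above background lay between 60.7% and 65.7% in *Sox17 f/f* and was lower, between 56.8% and 59.4%, in *Sox17 ed/ed*, without overlap. The lowest processed signal counted as above background was 13.1 to 16.3 and 17.0 to 18.0. This touches the genes near it, among them *Fzd9*, *Wif1*, *Wnt7b*, *Sostdc1* and a probe of *Fzd5*, and its part in their changes was not tested. No spot was saturated, and arrays within a genotype correlated at 0.990 or higher. *Sox17* itself measured 12.21, 12.07 and 12.22 in the *Sox17 f/f* arrays and 9.75, 9.59 and 9.81 in the *Sox17 ed/ed* arrays, a log2 change of -2.45 (SE 0.09, adjusted p = 2.66e-05), and its other probe changed by -2.97. Whether these probes lie in the deleted part of the gene is not given in the sources used here. All 6 arrays shared 1 slide and 1 scan, with each genotype in a line of its own on the slide, so that line and genotype cannot be told apart. With 3 arrays against 3, a two-sided exact permutation test on 1 gene has a smallest possible p of 0.1. In whole tissue, fewer cells of a type and less RNA in each cell cannot be told apart.

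To show the stretch of genome next to the genes that changed most, the 250 bases before the annotated start are given for the 4 genes with the largest fitted changes among those that rose or fell and have an entry in the promoter table used here, which are *Wnt11*, *Wif1*, *Fzd10* and *Wnt4*. The sequences are RefSeq's on GRCm38.p6, each written on the plus strand, which is the strand of all these genes. Capitals mark a match to 1 of 3 short motifs searched on both strands. These were CTTTGAT or CTTTGAA for Tcf and Lef factors, AACAAT for SOX factors and AGGTCA for the half-site of nuclear receptors, and no motif contains another.
Wnt11, first start, chr7:98834862-98835111: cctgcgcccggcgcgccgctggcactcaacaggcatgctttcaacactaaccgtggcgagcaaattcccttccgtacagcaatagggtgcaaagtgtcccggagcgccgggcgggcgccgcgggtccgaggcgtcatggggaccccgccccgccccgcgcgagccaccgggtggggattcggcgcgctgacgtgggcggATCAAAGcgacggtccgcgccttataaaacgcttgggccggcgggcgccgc
Wnt11, other start, chr7:98838595-98838844: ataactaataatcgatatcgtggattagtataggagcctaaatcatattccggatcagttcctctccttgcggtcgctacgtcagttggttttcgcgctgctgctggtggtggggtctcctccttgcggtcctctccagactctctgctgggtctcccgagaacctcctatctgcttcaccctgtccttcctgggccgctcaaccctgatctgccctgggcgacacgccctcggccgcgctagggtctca
Wif1, chr10:121033754-121034003: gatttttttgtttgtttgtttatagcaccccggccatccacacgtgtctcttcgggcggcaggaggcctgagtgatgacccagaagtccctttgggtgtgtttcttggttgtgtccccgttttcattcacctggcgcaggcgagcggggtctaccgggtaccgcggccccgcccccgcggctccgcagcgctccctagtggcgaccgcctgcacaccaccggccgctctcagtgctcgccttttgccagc
Fzd10, chr5:128600856-128601105: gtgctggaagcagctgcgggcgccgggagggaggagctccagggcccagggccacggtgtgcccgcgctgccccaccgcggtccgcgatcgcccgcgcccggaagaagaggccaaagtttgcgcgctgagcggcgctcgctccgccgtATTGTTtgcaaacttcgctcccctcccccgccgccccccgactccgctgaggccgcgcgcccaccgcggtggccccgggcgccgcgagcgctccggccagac
Wnt4, chr4:137277385-137277634: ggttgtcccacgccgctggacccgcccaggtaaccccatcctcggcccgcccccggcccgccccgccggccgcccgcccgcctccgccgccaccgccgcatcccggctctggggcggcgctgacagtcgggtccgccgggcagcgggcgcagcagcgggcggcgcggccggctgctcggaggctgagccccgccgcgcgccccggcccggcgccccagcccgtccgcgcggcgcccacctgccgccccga
The capitals in the first *Wnt11* window read ATCAAAG, the reverse complement of the first Tcf and Lef motif, and end 45 bases before the start. Those in the *Fzd10* window read ATTGTT, the reverse complement of the SOX motif, and end 97 bases before the start. The second *Wnt11* window and those of *Wif1* and *Wnt4* held none of the 3 motifs. Over 13 windows of the 11 genes that rose or fell and have an entry, the Tcf and Lef motif, the SOX motif and the nuclear receptor half-site each occurred in 1 window, the last in that of *Wnt16*. Over all 32851 windows of this length, from 27025 genes, 7.48% held the first, 9.42% the second and 14% the third. A match is a run of letters and says nothing of whether a factor binds there.

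Ligands held the widest spread of changes. Of 19 Wnt ligand genes, 11 were tested, and 4 rose, 1 fell and 6 did not pass the thresholds. Values are log2 of the quantile normalized processed signal, given in the order of replicates 1, 2 and 3, and because probes differ in how brightly they bind, levels are compared only within a gene.

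*Wnt11*, a ligand of the non-canonical branch known from the branching tips of the kidney, measured 8.81, 9.34 and 8.94 in the *Sox17 f/f* arrays and 4.89, 5.003 and 4.82 in the *Sox17 ed/ed* arrays. All *Sox17 ed/ed* arrays were far below all *Sox17 f/f* arrays, yet still well above background. The log2 fold change was -4.13 (95% confidence interval -4.48 to -3.77, adjusted p = 2.66e-05). With another background correction, which starts from the median spot signal and adds an offset of 50, it was -2.72 and still passed. The offset by construction shrinks the changes of dim probes.

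*Wnt7b*, a ligand of epithelia that is needed for lung growth, measured 4.72, 4.52 and 3.75 in the *Sox17 f/f* arrays and 7.46, 6.82 and 7.19 in the *Sox17 ed/ed* arrays. The *Sox17 f/f* arrays were near the background limit, which lay between 3.19 and 4.34 on the different arrays, and the genotypes lay far apart. The fitted difference was 2.83 (95% confidence interval 2.13 to 3.52, adjusted p = 0.00141), or 7.09-fold higher, and 1.28 with the offset.

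*Wnt4*, which the uterine stroma needs to decidualize, measured 6.63, 6.72 and 6.59 in *Sox17 f/f* and 8.52, 8.26 and 8.00 in *Sox17 ed/ed*. The *Sox17 f/f* values were nearly identical, and the lowest *Sox17 ed/ed* array was more than 1 log2 unit above them. Its log2 fold change was 1.61 (95% confidence interval 1.29 to 1.94, adjusted p = 6.00e-04).

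*Wnt16*, a ligand best known from bone, measured 7.52, 7.87 and 7.68 in *Sox17 f/f* and 8.35, 8.80 and 8.62 in *Sox17 ed/ed*, without overlap. It rose by 0.90 (95% confidence interval 0.55 to 1.25, adjusted p = 0.00843), and its other tested probe gave 0.99, so that both probes passed.

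*Wnt6*, a ligand that supports the proliferation of stromal cells in the mouse uterus, measured 8.97, 8.86 and 8.80 in *Sox17 f/f* and 9.64, 9.16 and 9.31 in *Sox17 ed/ed*. The arrays did not overlap, but the step between the highest control and the lowest *Sox17 ed/ed* array was narrow. The log2 fold change of 0.49 (95% confidence interval 0.17 to 0.82, adjusted p = 0.0494) sat at the edge of both thresholds. The call held without *Sox17 ed/ed* replicate 2 and was lost without any 1 of the other 5 arrays, where the change was between 0.36 and 0.54.

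**Figure D1:**
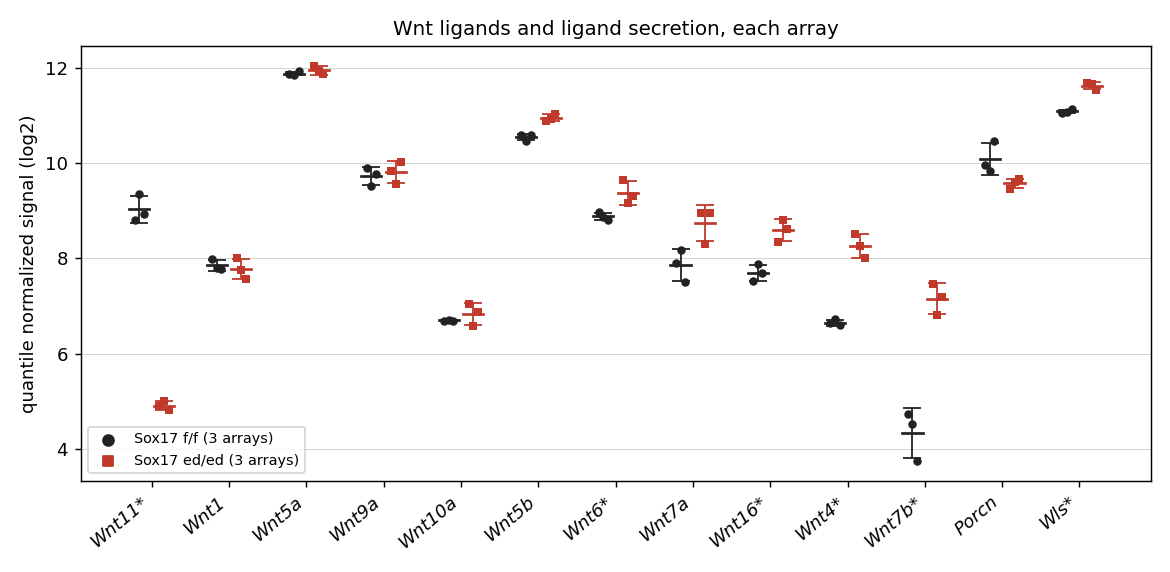
Log2 quantile normalized signal of the 11 tested Wnt ligands and of the secretion genes *Porcn* and *Wls* in each array, with circles for 3 *Sox17 f/f* and squares for 3 *Sox17 ed/ed* arrays, a bar for the mean and whiskers of 1 SD. An asterisk marks genes that passed the thresholds. *Wnt11* drops from about 9.03 to 4.90 on average, and *Wnt7b* climbs from 4.33 to 7.16.

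*Wnt7a*, the luminal epithelial ligand that patterns the Mullerian duct and is needed for glands to form, was just outside the thresholds. It measured 7.91, 8.18 and 7.50 in *Sox17 f/f* and 8.96, 8.30 and 8.96 in *Sox17 ed/ed*. Replicate 2 was the highest control and the lowest *Sox17 ed/ed* array, and the genotypes did not overlap. The difference was 0.88 (95% confidence interval 0.29 to 1.47, unadjusted p = 0.0104, adjusted p = 0.0533). It passed in some alternatives. Among them were the fits without *Sox17 f/f* replicate 2, at 1.04, without *Sox17 ed/ed* replicate 2, at 1.097, and with the arrays shifted to a common 75th percentile, at 0.89.

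*Wnt5b*, a non-canonical ligand, measured 10.58, 10.47 and 10.59 against 10.89, 10.93 and 11.04, a difference of 0.40 (adjusted p = 0.0135) that was under the fold threshold. The 4 remaining ligands did not pass and had small differences. *Wnt5a*, the non-canonical ligand of the uterine mesenchyme, measured 11.87, 11.85 and 11.93 against 12.05, 11.93 and 11.87, and the 95% confidence interval of its difference, -0.11 to 0.24, excludes a change of 1.4-fold. *Wnt1*, *Wnt9a* and *Wnt10a* had log2 fold changes of -0.07, 0.07 and 0.13, and their intervals also lay within 1.4-fold in either direction. The 8 ligands not tested were *Wnt2*, *Wnt2b*, *Wnt3*, *Wnt3a*, *Wnt8a*, *Wnt8b*, *Wnt9b* and *Wnt10b*. A signal not well above background bounds the level on this array and does not show that the gene was silent.

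Both genes that ready ligands for release were tested. *Wls*, the membrane carrier that brings lipid-modified Wnt proteins to the cell surface, measured 11.06, 11.07 and 11.13 in *Sox17 f/f* and 11.67, 11.66 and 11.54 in *Sox17 ed/ed*. Its arrays were tight within each genotype and did not overlap, and it rose by 0.54 (95% confidence interval 0.37 to 0.70, adjusted p = 0.00347). *Porcn*, the enzyme that attaches the lipid, measured 9.96, 9.83 and 10.47 against 9.46, 9.59 and 9.66. The genotypes did not overlap here either, with the difference in the other direction, -0.51 (95% confidence interval -0.93 to -0.09, adjusted p = 0.0912), and it did not pass.

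Of 11 Frizzled symbols, which include *Fzd10os*, 10 receptors were tested, and 1 rose and 1 fell. *Fzd10* measured 7.96, 7.65 and 7.96 in the *Sox17 f/f* arrays and 9.63, 9.40 and 9.52 in the *Sox17 ed/ed* arrays. Each *Sox17 ed/ed* array was more than 1 log2 unit above each control, and the log2 fold change was 1.66 (95% confidence interval 1.39 to 1.93, adjusted p = 2.57e-04), or 3.17-fold. *Fzd9*, a receptor studied in bone and brain, measured 5.04, 5.71 and 5.20 against 4.21, 4.32 and 4.59. It was well above background on all 3 control arrays but on only 1 of 3 *Sox17 ed/ed* arrays. It fell by 0.95 on the log2 scale (95% confidence interval -1.42 to -0.48, adjusted p = 0.0207), and the call was lost without *Sox17 ed/ed* replicate 1, at -0.87, without *Sox17 ed/ed* replicate 2, at -0.92, and with the offset of 50, at -0.29.

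The other 8 Frizzled receptors did not pass. *Fzd3*, a receptor of the polarity branch, measured 8.10, 8.21 and 8.06 against 7.88, 7.73 and 7.68. Its difference of -0.36 had an adjusted p of 0.0297 but was under the fold threshold. *Fzd1*, *Fzd2*, *Fzd4* and *Fzd7* had log2 fold changes of 0.00, 0.19, 0.10 and 0.08, with intervals inside 1.4-fold in either direction, and the other tested probe of *Fzd2* gave -0.07. *Fzd6* and *Fzd8* had differences of -0.21 and 0.34, with wider intervals, and *Fzd8* passed without *Sox17 f/f* replicate 2, at 0.50.

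The probes of *Fzd5*, a receptor known from gut epithelium, gave different answers. The probe that was brighter on average over the 6 arrays, 5.23 against 5.12, measured 5.48, 5.08 and 5.57 against 4.97, 5.03 and 5.24, which overlapped, a difference of -0.30 that did not pass. The other probe measured 6.04, 5.79 and 5.84, above it on each control array, against 4.26, 4.16 and 4.65, a difference of -1.54 (unadjusted p = 3.31e-05) with 1 of 3 *Sox17 ed/ed* arrays well above background. The mean of both probes passed at -0.92, so the call for *Fzd5* rests on which probe stands for the gene.

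The co-receptors *Lrp5* and *Lrp6* had intervals that exclude a change of 1.4-fold. *Lrp6* measured 11.83, 11.65 and 11.78 against 11.63, 11.83 and 11.85, and the arrays of the genotypes overlapped fully. The 95% confidence interval of its difference was -0.20 to 0.23, and that of *Lrp5* was -0.12 to 0.23.

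**Figure D2:**
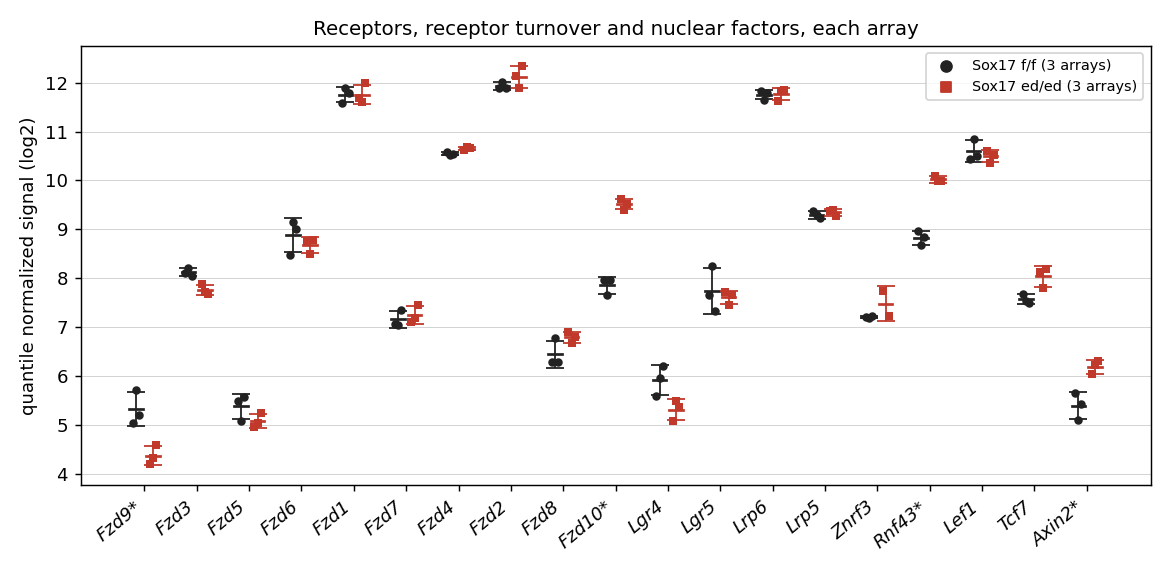
Log2 quantile normalized signal of the tested Frizzled receptors, R-spondin receptors, co-receptors, receptor ligases and nuclear or feedback genes in each array, drawn as for the ligands, with whiskers of 1 SD and an asterisk for genes that passed. *Fzd10* and *Rnf43* stand apart between genotypes, while *Lrp5*, *Lrp6* and *Lef1* overlap. *Znrf3* has 2 *Sox17 ed/ed* arrays because 1 spot was left out.

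R-spondins are secreted proteins that bind Lgr receptors and stop *Rnf43* and *Znrf3* from removing Frizzled receptors from the cell surface, which makes cells more sensitive to Wnt ligands. Of the 4 R-spondins, *Rspo1* and *Rspo3* were tested, and neither passed. *Rspo1* measured 11.39, 11.48 and 11.53 against 11.38, 11.63 and 11.53, and *Rspo3* differed by -0.11, both with intervals inside 1.4-fold.

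Among their receptors, *Lgr5*, a marker of stem cells in the gut that the uterine epithelium also carries, measured 7.65, 8.25 and 7.33 in *Sox17 f/f* and 7.71, 7.45 and 7.65 in *Sox17 ed/ed*. The control arrays were spread over almost 1 log2 unit around the *Sox17 ed/ed* arrays. The interval of its difference of -0.14 ran from -0.70 to 0.43, which leaves changes beyond 1.4-fold possible. *Lgr4*, a more broadly expressed receptor needed for gland formation in the uterus, measured 5.60, 5.95 and 6.21 against 5.08, 5.48 and 5.38 without overlap. Its difference of -0.61 (95% confidence interval -1.05 to -0.17, adjusted p = 0.0664) did not pass, but did without *Sox17 f/f* replicate 1, at -0.77. *Lgr6*, *Rspo2* and *Rspo4* were not tested.

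Both receptor ligases were tested. *Rnf43* measured 8.96, 8.68 and 8.84 in *Sox17 f/f* and 10.10, 9.98 and 9.99 in *Sox17 ed/ed*. Every *Sox17 ed/ed* array was about 1 log2 unit or more above every control, and the log2 fold change was 1.20 (95% confidence interval 0.98 to 1.42, adjusted p = 4.14e-04), or 2.29-fold. *Znrf3*, its close relative, measured 7.20, 7.18 and 7.23 in *Sox17 f/f* and 7.73 and 7.23 in *Sox17 ed/ed* replicates 1 and 3, since the spot of replicate 2 was marked as an outlier by the scanner software and left out. The difference of 0.27 did not pass with these 5 values, and it was 0.53 and passed without *Sox17 ed/ed* replicate 3, where a single *Sox17 ed/ed* value remained. In the deposited table of processed values, which keeps the marked spot, the difference was 1.64 and did not pass either.

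Among the secreted antagonists more genes fell than rose. Of 10 genes, 8 were tested, 4 fell, 1 rose and 3 did not pass, and their median log2 fold change was -0.62. *Dkk1* and *Dkk2* bind *Lrp5* and *Lrp6*, whereas Sfrp proteins, *Frzb* and *Wif1* bind the ligands themselves.

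*Dkk2* measured 8.94, 8.74 and 8.83 in *Sox17 f/f* and 7.98, 7.75 and 7.73 in *Sox17 ed/ed*. All *Sox17 ed/ed* arrays were below all controls, and *Dkk2* fell by 1.02 on the log2 scale (95% confidence interval -1.25 to -0.78, adjusted p = 0.0011). *Dkk3*, a divergent member of the Dkk family for which no such binding is claimed here, measured 12.85, 12.63 and 12.54 against 12.08, 12.14 and 12.08, again without overlap. Its log2 fold change was -0.57 (95% confidence interval -0.80 to -0.35, adjusted p = 0.00906). With the background correction that starts from the median spot signal and adds the offset, it was -0.44, under the fold threshold. The probe was bright, and the part of the offset in that difference was not tested.

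*Sfrp1* measured 7.73, 8.07 and 7.72 in *Sox17 f/f* and 6.78, 6.89 and 7.03 in *Sox17 ed/ed*. It fell by 0.94 on the log2 scale (95% confidence interval -1.24 to -0.64, adjusted p = 0.00388). *Sfrp4*, which is abundant in uterine stroma, measured 13.21, 12.97 and 13.21 against 12.40, 12.53 and 12.52. It fell by 0.64 (95% confidence interval -0.87 to -0.42, adjusted p = 0.00533), and all *Sox17 ed/ed* arrays of both genes were below all controls. *Sfrp2* differed by 0.12, and the interval of that difference excludes a change of 1.4-fold.

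*Wif1* was the only antagonist that rose. It measured 1.72, 1.73 and 1.70 in the *Sox17 f/f* arrays, none of them well above background, and 4.57, 4.81 and 5.61 in the *Sox17 ed/ed* arrays, all of them above it. Because the control values are only an upper bound, the change is given against the lowest signal counted as above background, at least 2.60-fold higher. The adjusted p of 4.96e-04 from limma belongs to the fitted log2 change of 3.28, which uses the control values below background, and not to this bound. *Wif1* was tested only through its *Sox17 ed/ed* arrays, so it was selected where it is high and that p is no separate support. With the offset of 50 its log2 fold change was 0.82 and it still passed.

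*Frzb* measured 8.39, 8.38 and 7.89 in *Sox17 f/f* and 7.41, 7.81 and 7.66 in *Sox17 ed/ed*, and *Sox17 f/f* replicate 3 was close to the *Sox17 ed/ed* arrays. The difference of *Frzb* was -0.59 (adjusted p = 0.0615) and did not pass. It passed at the same -0.59 with an intensity trend in limma and with the filter that needs all 6 arrays above background. Without *Sox17 f/f* replicate 3 it was -0.76 and passed. *Sfrp5* turned on the same array. This antagonist measured 7.30, 7.15 and 5.51 in *Sox17 f/f* and 6.15, 5.96 and 5.89 in *Sox17 ed/ed*, so that 2 controls were above and 1 was below all *Sox17 ed/ed* arrays. Its difference of -0.65 (95% confidence interval -1.78 to 0.48, adjusted p = 0.378) did not pass, and it was -1.22 and passed without *Sox17 f/f* replicate 3. *Dkk1* and *Dkk4* were not tested.

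**Figure D3:**
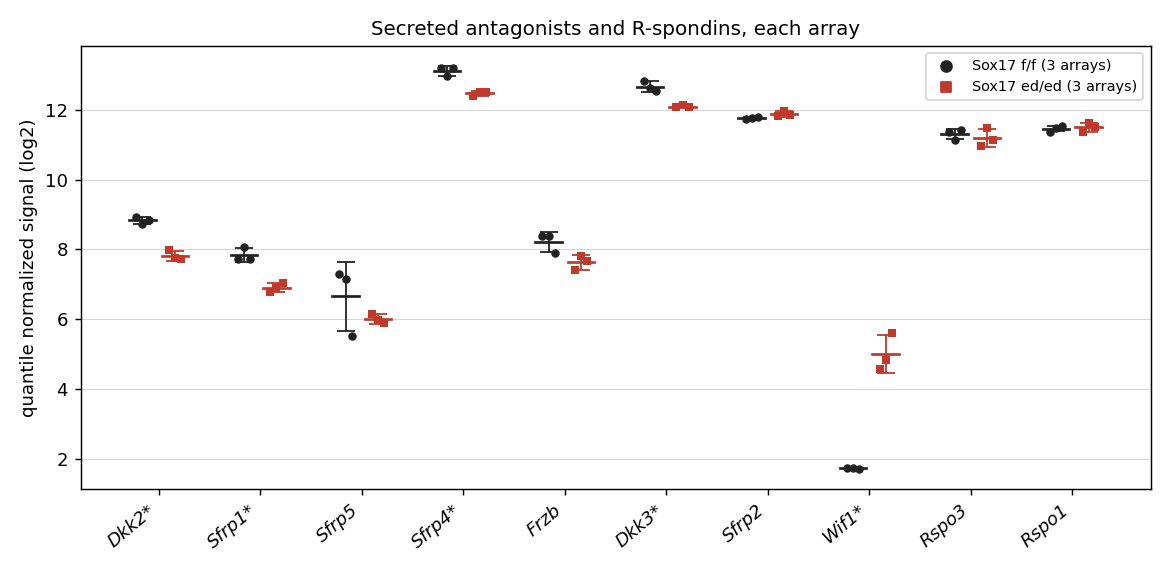
Log2 quantile normalized signal of the 8 tested secreted antagonists and of *Rspo1* and *Rspo3* in each array, drawn as for the ligands, with whiskers of 1 SD and an asterisk for genes that passed. The *Sox17 ed/ed* arrays of *Dkk2*, *Sfrp1*, *Sfrp4* and *Dkk3* sit below all controls. The *Sox17 f/f* arrays of *Wif1*, near 1.72, were not well above background, and 1 control array of *Sfrp5* sits at 5.51, apart from the other 2.

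*Axin2*, a scaffold of the beta-catenin destruction complex that is itself switched on by canonical signalling, measured 5.65, 5.10 and 5.42 in *Sox17 f/f* and 6.03, 6.22 and 6.31 in *Sox17 ed/ed*. It rose by 0.80 on the log2 scale (95% confidence interval 0.43 to 1.17, adjusted p = 0.0164), without overlap between genotypes. With the offset of 50 the change was 0.38, under the fold threshold, and its other probe was at background level on all 6 arrays. *Tcf7*, a nuclear partner of beta-catenin, measured 7.68, 7.53 and 7.49 against 8.13, 7.80 and 8.18. Its difference of 0.47 (adjusted p = 0.0444) was just under the fold threshold, its other probe gave 0.44, and without *Sox17 ed/ed* replicate 2 it was 0.59 and passed. *Lef1*, another such partner, measured 10.45, 10.85 and 10.50 against 10.60, 10.36 and 10.51, and the interval of its difference of -0.11 excludes a change of 1.4-fold.

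**Figure D4:**
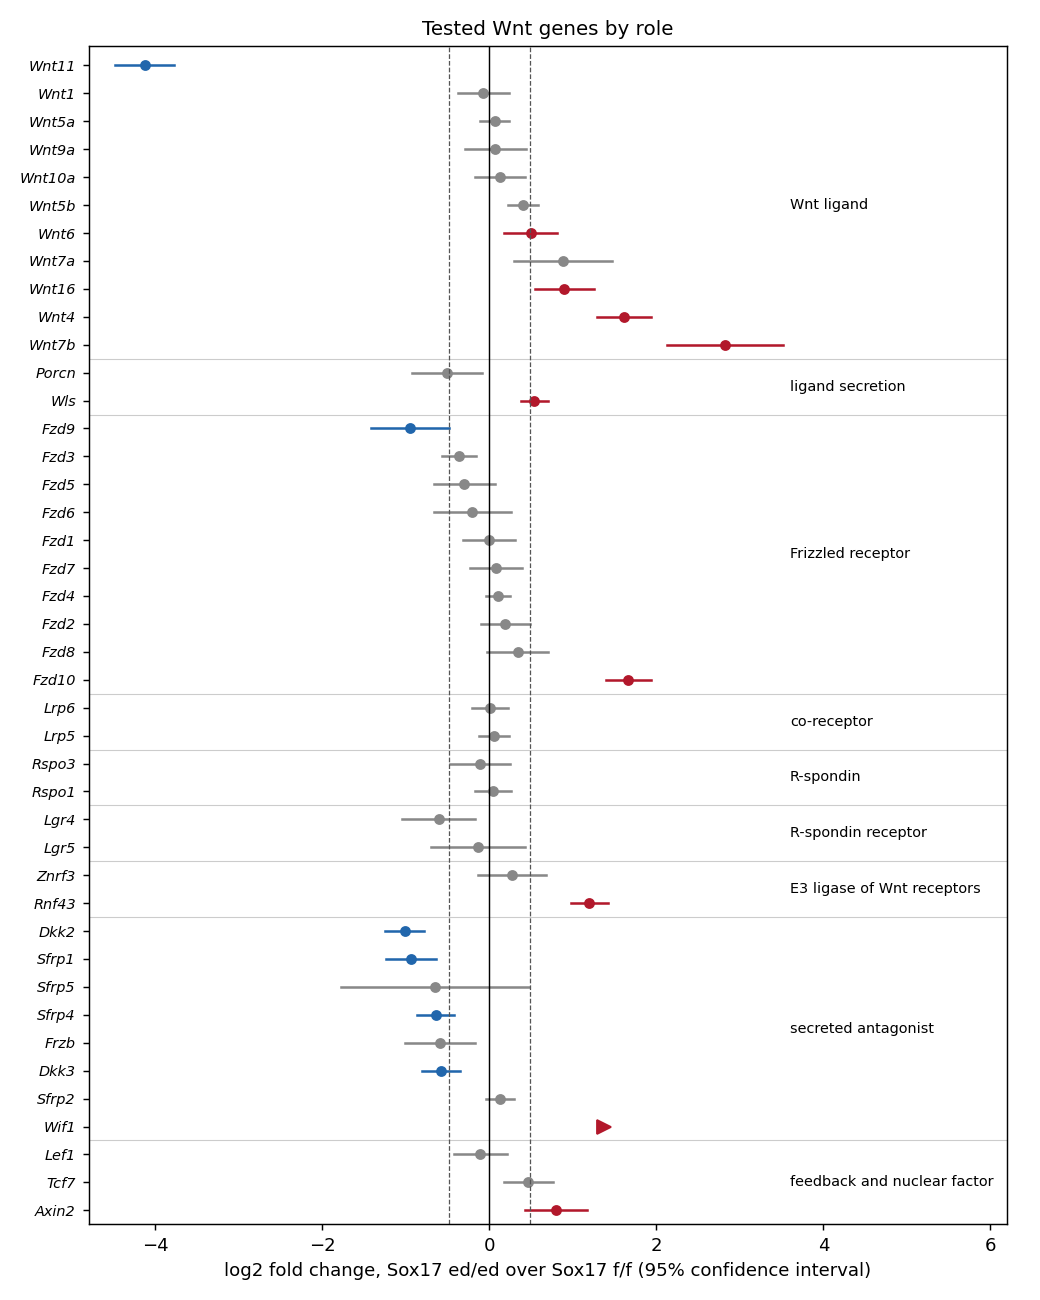
Log2 fold change, *Sox17 ed/ed* over *Sox17 f/f*, of the 42 tested Wnt genes grouped by role, with bars for the 95% confidence interval and dashed lines at 1.4-fold in either direction (0.49 on the log2 scale). Red marks genes that rose, blue genes that fell and grey genes that did not pass, and the triangle for *Wif1* marks its bound of 2.60-fold. Ligands run from *Wnt11* at -4.13 to *Wnt7b* at 2.83, and 4 of the 8 antagonists lie on the lower side in blue.

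Of the 27 tested Wnt genes that did not pass, 14 had a 95% confidence interval that lay within 1.4-fold in either direction. For the other 13, these arrays do not exclude a change of that size. Of all 14847 genes, 8441 had such an interval.

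The inner parts of the pathway were taken from a list of 67 further genes, which holds the destruction complex, Dishevelled proteins and their regulators, corepressors, polarity genes and other extracellular regulators. Of the 62 that were tested, 4 rose (6.45%) and 6 fell (9.68%), close to the shares among all genes. The median log2 fold change of the list was 0.01.

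Genes at the core of the pathway did not pass. *Ctnnb1*, which encodes beta-catenin, measured 12.19, 12.17 and 12.24 in *Sox17 f/f* and 12.19, 12.11 and 12.23 in *Sox17 ed/ed*. The 95% confidence interval of its difference was -0.18 to 0.14, so a change of its mRNA by 1.4-fold is excluded, while the level of the protein was not measured. The kinase gene *Gsk3b* differed by -0.02 and the scaffold gene *Axin1* by 0.05. *Apc*, a scaffold of the same complex, measured 7.43, 7.29 and 7.38 against 7.03, 7.05 and 7.04, a difference of -0.33 (adjusted p = 0.0182) under the fold threshold. The nuclear factor genes *Tcf7l1* and *Tcf7l2* had differences of 0.19 and 0.50, and *Tcf7l2* passed without *Sox17 ed/ed* replicate 3, at 0.84, while its other tested probe gave 0.03.

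*Tpbg*, *Tle2*, *Nkd2* and *Apcdd1* rose. *Tpbg*, a membrane glycoprotein that dampens canonical signalling, measured 7.98, 8.15 and 8.03 in *Sox17 f/f* and 8.96, 8.81 and 8.89 in *Sox17 ed/ed*, a log2 fold change of 0.83 (adjusted p = 9.63e-04). The corepressor *Tle2* rose by 0.82, the Dishevelled inhibitor *Nkd2* by 0.69 and the membrane inhibitor *Apcdd1* by 0.57, each without overlap between genotypes. The other tested probe of *Nkd2* gave 1.36 and passed as well. Its relative *Nkd1* did not pass by its brighter probe, at 0.37. The other tested probe of *Nkd1* gave 1.36 (unadjusted p = 0.00106 from limma), so its call rests on which probe stands for the gene.

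Those that fell were of mixed roles. *Sostdc1*, an antagonist that binds Lrp co-receptors, measured 5.64, 5.28 and 5.09 in *Sox17 f/f* and 3.90, 3.45 and 4.18 in *Sox17 ed/ed*. None of the *Sox17 ed/ed* arrays was well above background, so the change is a bound of at least 2.14-fold lower. The adjusted p of 0.00647 belongs to the fitted log2 change of -1.49 and not to this bound, and this probe was tested only through its *Sox17 f/f* arrays. The other tested probe of *Sostdc1* gave -1.40 (unadjusted p = 0.123 from limma) and did not pass. With the offset of 50 the log2 fold change of *Sostdc1* was -0.39 and did not pass. *Dact2*, which binds Dishevelled, measured 8.10, 7.42 and 8.36 against 6.57, 6.45 and 6.82, a log2 fold change of -1.35. *Ndp*, a ligand of *Fzd4* that is not a Wnt protein, measured 10.84, 10.81 and 10.93 against 10.01, 10.04 and 10.11, and it fell by 0.81 with little spread. The glypican *Gpc3* fell by 0.74. *Ror2*, a receptor of *Wnt5a*, fell by 0.54, and its call was lost without *Sox17 f/f* replicate 2 and without *Sox17 ed/ed* replicate 1, at -0.48 in both cases. *Lypd6*, which aids the co-receptors, fell by 0.68 but kept its call only without *Sox17 f/f* replicate 1, and its change was between -0.72 and -0.52 without each of the other arrays. Its other tested probe gave -0.09, and the mean of both, -0.39, did not pass.

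Genes reported as targets of beta-catenin in some tissue formed a list of 25, of which 22 were tested. Of these, 3 rose (13.6%) and 2 fell (9.09%), against 6.04% and 6.47% of all genes, and the median log2 fold change was 0.02. These shares rest on few genes and were not tested. *Tnfrsf19*, a receptor of the tumour necrosis factor family, measured 9.30, 9.24 and 9.66 in *Sox17 f/f* and 11.26, 11.14 and 11.23 in *Sox17 ed/ed*. It rose by 1.81 on the log2 scale (95% confidence interval 1.51 to 2.11, adjusted p = 2.67e-04), the largest rise in this list. The transcription factor gene *Sp5* measured 7.18, 6.75 and 7.03 against 8.03, 8.20 and 8.06, and it rose by 1.11 (adjusted p = 0.00199). *Tiam1*, an exchange factor of the GTPase Rac, rose by 0.53 (adjusted p = 0.043), and its call held without *Sox17 f/f* replicate 2 and was lost without any 1 of the other arrays, at 0.40 to 0.60.

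The growth factor gene *Fgf18* measured 7.33, 7.54 and 7.89 in *Sox17 f/f* and 6.89, 6.73 and 6.94 in *Sox17 ed/ed* and fell by 0.73, a call that was lost without *Sox17 ed/ed* replicate 2, at -0.67. *Sox9*, which encodes a transcription factor of gland and duct epithelia, measured 7.03, 7.10 and 6.79 against 6.27, 6.21 and 6.35. It fell by 0.70, and with the offset of 50 the change was -0.42, under the fold threshold. Among the best known targets, *Ccnd1*, the cell cycle regulator, differed by 0.41 (adjusted p = 0.0113) and *Myc* by 0.24, both under the fold threshold. *Axin2*, *Rnf43* and *Znrf3*, which are also known targets, were described with their own roles above.

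The amounts of several cell types' markers differed between the genotypes alongside these genes. Of 7 gland markers, 6 fell and 1, *Aldh1a1*, rose. The summed linear signal of the 6 that fell was 34134 to 54764 in *Sox17 f/f* and 124 to 198 in *Sox17 ed/ed*, where 2 of them, *Prss29* and *Ttr*, stayed at background level on each array. *Aldh1a1* measured 712 to 938 and 11570 to 14249 on the same linear scale, so it made up nearly all of the sum over the whole list in *Sox17 ed/ed*, 11694 to 14447, against 35072 to 55602 in *Sox17 f/f*. Of 12 markers of the uterine epithelium, 5 rose and 2 fell, with sums of 54031 to 57598 and 59517 to 73507. The higher sum in *Sox17 ed/ed* came from *Krt19* and *Cdh16* and does not stand for the rest of the list. On the log2 scale *Krt19* rose from 12.02 to 14.12 on average. *Cdh16* rose from 3.58, near background, to 12.26. The 10 markers of endometrial stroma were all tested and none passed, with sums of 324249 to 329474 and 289214 to 311895. For smooth muscle, 1 of 8 markers fell, and the sums were 495358 to 547073 against 369266 to 444741. None of the 7 endothelial and 6 tested leukocyte markers passed, with sums of 8798 to 8972 against 6868 to 7234 and of 14503 to 14760 against 16905 to 18553. Without the fold limit, 5 endothelial markers were lower at an adjusted p under 0.05 and 1 leukocyte marker was higher. The arrays of the genotypes did not overlap for 6 endothelial markers, all lower, and for 2 leukocyte markers, all higher. Among all genes these shares were 18.9% and 40.6%, in either direction. All markers of the uterine epithelium, stroma and smooth muscle were bright enough to be tested. The part of these differences in the changes of the Wnt genes was not tested.

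Markers of neighbouring tissues also moved in part. Of 5 oviduct markers, 2 fell and 1 rose, with sums of 1632 to 2636 in *Sox17 f/f* and 438 to 506 in *Sox17 ed/ed*. Of 4 tested squamous epithelial markers 1 rose, and of 4 tested mesothelial markers 1 rose and 1 fell. None of 3 tested adipocyte and 2 tested ovary markers passed. The sum over all 7 ovary markers, tested or not, was 138 to 179 in *Sox17 f/f* and 174, 134 and 836 in *Sox17 ed/ed*, and the last value came largely from *Cyp11a1*, which measured 9.42 on the log2 scale in *Sox17 ed/ed* replicate 3 and was at background level on the other 5 arrays. Without that array, 9 Wnt genes were higher and 6 lower. The part of these markers in the changes of the Wnt genes was not tested either.

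**Figure D5:**
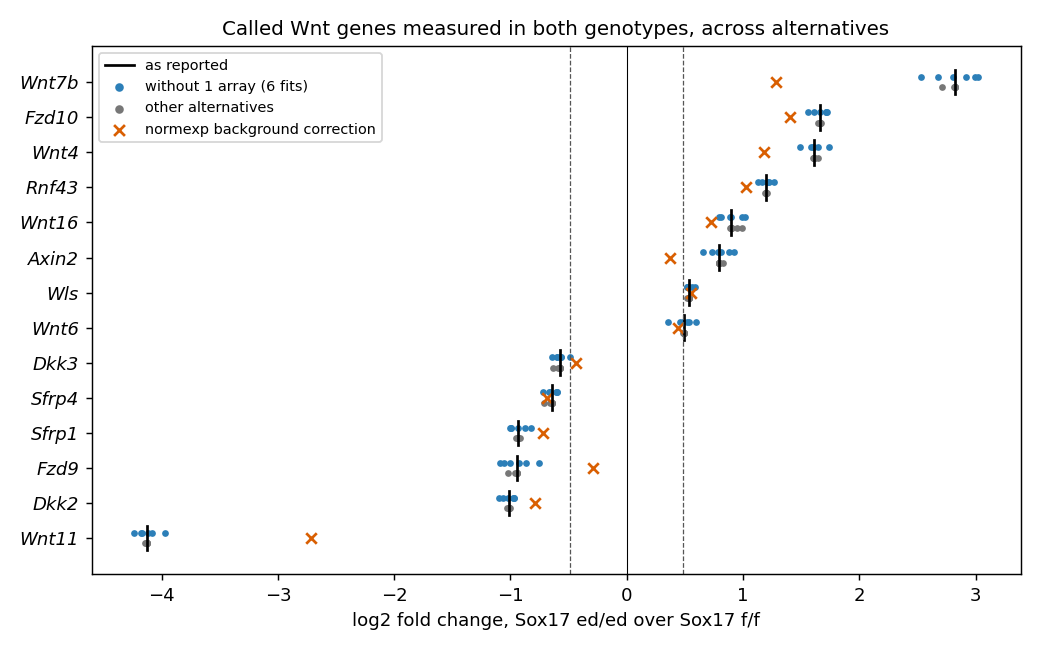
Log2 fold change, *Sox17 ed/ed* over *Sox17 f/f*, of the 14 genes that rose or fell and were above background in both genotypes, as reported (vertical bar), in 6 fits without 1 array each, in other alternatives and with an offset of 50 in the background correction (cross), with dashed lines at 1.4-fold. No gene changes side, the crosses lie nearer to 0 for *Wnt7b*, *Wnt11* and *Fzd9*, and those of *Axin2*, *Dkk3*, *Wnt6* and *Fzd9* fall inside the dashed lines.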

How the data were processed

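RNA of the whole uterus was hybridised, 3 arrays for each genotype, to 1-colour Agilent arrays, and samples were grouped by the genotype in their labels. For every array the authors deposited the scanner's spot table, and for the series a table of processed values. Of the deposited intensity columns, the processed signal was used, from Feature Extraction 11.0.1.1 (the submitters' processing notes name 9.1), background-subtracted and detrended within each array. The deposited table matched the mean of that signal per probe within 0.05%, so it was not normalized between arrays. The study's methods name quantile normalization and the thresholds used here, but no test. Values near background are uncertain on a log scale.

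From 62976 spots per array, controls (3671) and 169 to 302 outlier spots were left out, log2 values were quantile normalized, and spots of a probe were averaged. A probe was kept if well above background on at least 3 of 6 arrays, and the brightest kept probe stood for its gene. Names came from RefSeq accessions (GRCm38.p6 table, 26582 of 55681 probes), and since the array design uses mm9, no gene coordinates were taken from it. The genotypes were compared with limma 3.58.1 (lmFit, eBayes) in R 4.3.3 on 14847 genes, 10901 of which had 1 tested probe. Where no array of a genotype was above background, a bound is given. Precision is limited by 3 arrays in each genotype, where the median SD within a genotype was 0.12.

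*Sox17*, every Wnt gene of the set, all genes of the pathway and target lists that passed and 8 genes of those lists named whatever their values are given. The members and lists were chosen with earlier results of these data known, and no list was tested as a set. In data simulated for this comparison on 14847 genes, 94 of 100 genes changed by 1 and 97 of 100 changed by 2 on the log2 scale were recovered, with 58 unchanged genes called. The labels do not say whether replicate numbers pair the samples, and no pairing was used in the main fit. Same-numbered arrays correlated in their deviations at 0.06, -0.11 and -0.00, and differently numbered ones between -0.08 and 0.08. With 3 arrays in each genotype, such correlations cannot settle it. Alternatives were a 75th percentile shift, normexp (offset 50), other filters and probe rules, an intensity trend, the deposited table, a replicate block, leaving out each array, and other call rules. Chromatin, protein and human measurements of the study were not used here.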

Additional observations from a re-analysis of the deposited data

Results flagged for a closer look

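In 3 Wnt genes that were not tested, a signal well above background appeared on 1 *Sox17 ed/ed* array and on no *Sox17 f/f* array. *Dkk1*, an antagonist that binds Lrp co-receptors, measured 8.78 in *Sox17 ed/ed* replicate 2 and between 1.76 and 1.89 on the other 5 arrays. *Dkk4*, its relative, measured 5.51 on the same array and no more than 2.48 elsewhere. The ligand *Wnt2b* measured 5.13 in *Sox17 ed/ed* replicate 3 and between 2.33 and 4.26 on the other arrays. Other untested genes went the other way: *Lgr6* was above background on 2 *Sox17 f/f* arrays and *Wnt8b* on 2 by 1 probe and on 1 by the other, and neither was on any *Sox17 ed/ed* array. These values rest on 1 or 2 arrays, and no difference between the genotypes was tested.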

How the results depend on the processing

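No gene that rose or fell changed direction in any alternative. Apart from the stricter 2-fold rule, 11 of 15 Wnt genes passed in every alternative that tested them. *Wif1*, which is among the 11, was left out by the filter that needs all 6 arrays above background, as was *Fzd9*. Counts of higher and lower Wnt genes were within 1.5 times the reported 9 and 6 in all but that rule. At an adjusted p under 0.05 and at least 2-fold, 5 Wnt genes were higher and 2 lower, 2 pathway and 2 target genes passed, and 816 of all genes did, against 2808 at an adjusted p under 0.05 with no fold limit and 1857 as reported. Without 1 array, 8 to 11 Wnt genes were higher, 5 to 8 lower, 8 to 11 pathway genes and 3 to 7 target genes passed (3 without *Sox17 ed/ed* replicate 2), and between 1665 and 2034 of all genes did. Of the reported Wnt calls, those of *Wnt6*, *Fzd9*, *Axin2* and *Dkk3* were lost in some alternative; that of *Wnt6* was also lost with no filter on low signal and with the deposited table, at 0.48.

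Changes near 0 took the other sign in some alternatives, none of them in a gene that passed. With the 75th percentile shift, *Fzd1* was at -0.037 and *Lrp6* at -0.0218. With normexp, *Gsk3b* was at 0.0704, *Lrp5* at -0.0135, *Lrp6* at -0.0071 and *Wnt1* at 0.0426. *Gsk3b* was at 0.0528 with the mean of probes and at 0.235 with the probe of smallest p, and *Fzd1* at -0.0039 with the deposited table. Without 1 array the sign also turned for *Axin1* (-0.053 to 0.22), *Ctnnb1* (-0.0508 to 0.0119), *Fzd1* (-0.113 to 0.0763), *Fzd7* (-0.0188 to 0.183), *Gsk3b* (-0.0803 to 0.019), *Lef1* (-0.184 to 0.0185), *Lgr5* (-0.346 to 0.118), *Lrp6* (-0.0382 to 0.08), *Rspo1* (-0.0139 to 0.112), *Rspo3* (-0.247 to 0.0061), *Wnt1* (-0.186 to 0.0292) and *Wnt9a* (-0.0347 to 0.194), where both ends are the extremes over 6 fits. The cause was not tested.

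With the replicate number as a block, 9 Wnt genes were higher and 7 lower, the added one being *Lgr4*, 10 pathway and 4 target genes passed, and 1796 of all genes did. The block changed no other call among the Wnt genes and ended that of *Tiam1*. Normexp used the median spot signal, since the files hold no mean signal. For dim probes, signal over background limits what can be said, and the offset shrinks their changes by construction.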
